A study of Arabidopsis thaliana with 12 samples.

Results

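HD-ZIP class II genes encode plant transcription factors in which a homeodomain, the DNA-binding part, is followed directly by a leucine zipper, through which the proteins pair. The 9 genes described here are HAT1 (AT4G17460), HAT2 (AT5G47370), HAT3 (AT3G60390), HAT4 (AT4G16780), HAT9 (AT2G22800), HAT14 (AT5G06710), HAT22 (AT4G37790), HB4 (AT2G44910) and HB17 (AT2G01430). They were taken by their gene identifiers from a table of 23853 Arabidopsis genes, by a rule that sets no limit on any measured value. All 9 were in the table, and 8 of them reached the level needed for testing. ATHB18, the remaining gene of the 10-gene class, was not on that list and is given beside it where it helps.

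The table holds RNA-seq levels in roots of Arabidopsis thaliana, with 3 libraries in each of 4 groups. Col-0, the wild-type accession, and siz1-2, a T-DNA insertion mutant in the Col-0 background of SIZ1 (an E3 ligase that attaches the small protein SUMO to other proteins), were grown for 7 days on MS medium by the labels, while the published methods give a different age. They were then left without auxin (MS, called CK in the sample titles) or given 0.5 µM indole-3-acetic acid (IAA, the main natural auxin) for 3 h. The protocol label names IAA for all 12 libraries, so the groups follow the label of each library's treatment. The mutant is represented by a single allele, and the labels number the replicates without saying that they came from separate plates, so the p-values measure only the spread between these libraries.

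Class II proteins bind near-palindromic sites of the form CAATNATTG. They act mainly as repressors, in many cases through a short EAR motif that recruits TOPLESS co-repressors. The class is best known for shade avoidance, the growth response to light poor in red relative to far-red, in which HAT4 (also ATHB2) is an early-induced gene and HAT3 and HB4 act beside it. HAT2 has been described as a gene induced by auxin in seedlings, and HAT1 takes part in brassinosteroid signalling with BES1.

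Levels are FPKM (fragments per kilobase of exon, scaled to the size of the library), which can be compared between genes because they are per length. Each library held about 19600000 to 22500000 fragments assigned to genes, recovered from the steps between low values, and all 10 root marker genes were present in every library. Summed over those root markers, Col-0 libraries held 490 to 507 FPKM on MS and 377 to 446 with IAA. In siz1-2 the sum was 413 to 449 on MS and 354 to 386 with IAA. CASP1 and PHO1 were the highest of the 10 and weigh most in these sums. With IAA in Col-0, PHO1, COBL9 and WER fell and no root marker rose (limma, adjusted p under 0.05). This is 3 of 10, against 8.21% of all tested genes called lower. In siz1-2 COBL9 fell and WOX5 rose, while PHO1 (-0.44) and WER (-0.66) missed the threshold (limma adjusted p = 0.064 and 0.075). WOX5 had a log2 fold change of 0.55 in Col-0 (limma adjusted p = 0.094), and it passed there without IAA replicate 1 (0.80, adjusted p = 0.0051). Its responses were not shown to differ between genotypes (limma adjusted p = 0.41). Whether the sums reflect the amount of root tissue was not tested. Replicate 1 of Col-0 with IAA was unlike its group, differing from its companions by more than 1 log2 unit at 1848 genes, where the remaining libraries did so at 54 to 536. The median of 25 green tissue markers was 43.9 FPKM in that library and 35.1 FPKM in siz1-2 IAA replicate 2, against 5.55 to 14.0 FPKM in the other 10. By the same measure siz1-2 IAA replicate 2 differed from its companions at 200 genes. What sets Col-0 IAA replicate 1 apart was not tested. Whether these marker differences bear on the members' values was not tested, apart from the fits without those libraries given below. SIZ1 was lower in siz1-2, with log2 differences of -0.74 on MS and -0.76 with IAA (limma, adjusted p = 0.0056 and 0.0034), at 14.0 ± 0.738 and 14.5 ± 1.94 FPKM (SD, n = 3) against 23.8 ± 2.35 and 24.8 ± 3.12 FPKM in Col-0. The auxin-responsive genes IAA19 (log2 fold change 3.14 in Col-0 and 3.11 in siz1-2) and LBD29 (5.41 and 5.31) rose with IAA, as did GH3.3 (8.82 and 5.76). On MS GH3.3 was higher in siz1-2, at 13.8 ± 2.86 against 1.07 ± 0.14 FPKM (log2 difference 3.17, limma adjusted p = 9.5e-08). With IAA it was not called, at 766 ± 53.9 FPKM in siz1-2 and 710 ± 63.5 FPKM in Col-0 (0.11, limma adjusted p = 0.66).

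Among the 9 genes, 3 pairs are each other's nearest relatives in coding sequence. Between coding sequences aligned end to end, HAT9 and HAT22 were identical at 77.7% of the bases of the shorter one, HAT1 and HAT2 at 74.8% and HAT3 and HB4 at 72.3%. The other 3 have no such partner among the 9, since HAT4 was nearest to HB4 (68.7%), HB17 to ATHB18 (64.3%) and HAT14 to HB17 (62.9%). The longest run of identical bases shared by the HAT1 and HAT2 transcripts is shown because it is the part of a close pair in which short fragments cannot be told apart. It covers coding bases 517 to 554 of HAT1 and 502 to 539 of HAT2 and is 38 bases long, all of them identical and so left in lower case.
HAT1 and HAT2, shared run: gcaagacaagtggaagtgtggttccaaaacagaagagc
The corresponding runs were 35 bases in HAT9 and HAT22 and 26 bases in HAT3 and HB4. No other annotated gene overlapped a member.

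The 250 bases before the annotated gene start are shown for HAT1 and HAT2, a pair that differs in its values below, and for HAT22 and HAT4, each called in 1 comparison, from RefSeq's TAIR10.1, 5′ to 3′ on the strand of the gene. Capitals mark AATNATT, the core of CAATNATTG with any base in the middle, a pattern that reads the same on both strands. Because the middle base was left free, a match is not shown to be a site of class II proteins. HAT1 and HAT2 contain no match, so their lines have no capitals. The windows are chr4:9739268-9739517 (plus strand) for HAT1, chr5:19218008-19218257 (minus) for HAT2, chr4:17767792-17768041 (plus) for HAT22 and chr4:9448864-9449113 (plus) for HAT4.
HAT1: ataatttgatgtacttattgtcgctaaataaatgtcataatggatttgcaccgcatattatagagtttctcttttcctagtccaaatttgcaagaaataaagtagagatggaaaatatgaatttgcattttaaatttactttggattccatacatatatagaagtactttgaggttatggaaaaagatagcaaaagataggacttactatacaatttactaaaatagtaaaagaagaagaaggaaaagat
HAT2: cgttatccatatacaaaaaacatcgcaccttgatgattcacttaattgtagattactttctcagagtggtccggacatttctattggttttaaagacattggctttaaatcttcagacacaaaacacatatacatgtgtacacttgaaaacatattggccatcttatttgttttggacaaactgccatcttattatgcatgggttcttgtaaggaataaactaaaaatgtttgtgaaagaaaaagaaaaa
HAT22: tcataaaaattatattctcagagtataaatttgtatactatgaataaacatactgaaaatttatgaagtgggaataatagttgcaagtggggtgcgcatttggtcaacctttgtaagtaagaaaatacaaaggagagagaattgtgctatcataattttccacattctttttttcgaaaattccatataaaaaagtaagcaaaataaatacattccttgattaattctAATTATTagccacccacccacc
HAT4: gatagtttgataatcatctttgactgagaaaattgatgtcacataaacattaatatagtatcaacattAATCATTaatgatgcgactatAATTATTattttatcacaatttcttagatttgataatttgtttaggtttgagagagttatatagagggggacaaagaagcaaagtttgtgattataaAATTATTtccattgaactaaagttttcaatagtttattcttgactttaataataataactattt

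Upstream windows were searched for 8 of the 9 genes and ATHB18. The core AATNATT matched 3 times upstream of HAT4 (first bases at -182, -161 and -64) and 1 time each upstream of HAT22 (-22) and HB17 (-76). The middle base was C in the match at -182 and T or A in the others. Of 27443 windows of the same length before annotated protein-coding genes, 30.5% held the core at least 1 time and 1.21% held it 3 or more times. The whole site CAATNATTG, which contains the core, matched none of these windows and 0.918% of all windows. Of the auxin response factor sites, TGTCTC (10.9% of all windows) matched none of them and TGTCGG (4.16%) matched HAT14 alone, at -202. The G-box CACGTG (6.49%), bound by PIF and other light-signalling factors, matched HAT14 at -225 and HB17 at -243. Each motif was searched on both strands, and a match is a description of the letters in this window only. The gene model of HB17 is marked incomplete. Which of its ends is incomplete was not checked, so its positions may count from an incomplete end.

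**Figure D1:**
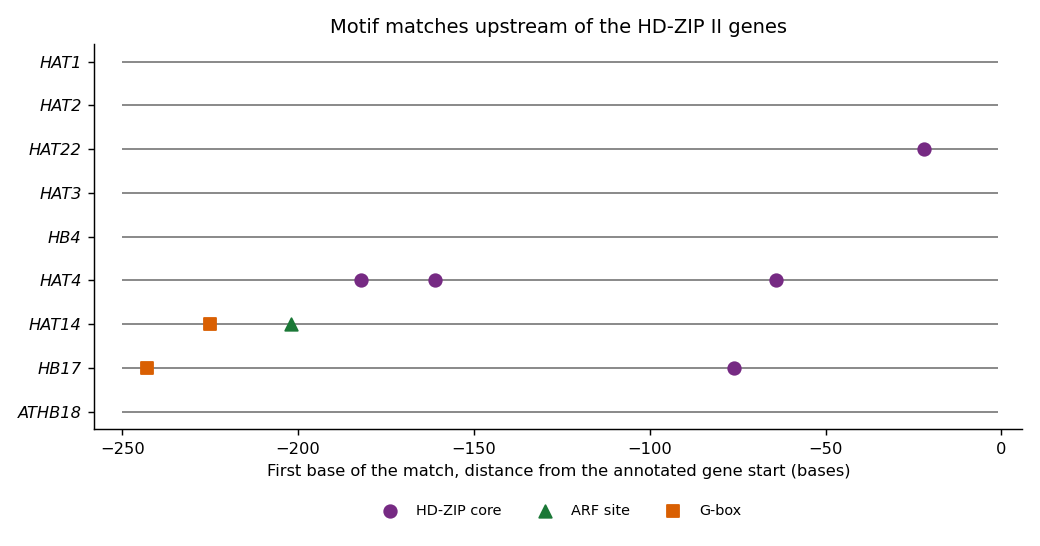
Matches to the HD-ZIP core AATNATT (circles), the auxin response factor site TGTCGG (triangle) and the G-box CACGTG (squares) in the 250 bases before the annotated start of 8 of the 9 genes and ATHB18, by the distance of the first base from the start. HAT4 has 3 core matches, and the lines of HAT1, HAT2, HAT3, HB4 and ATHB18 are empty.

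Upstream, HAT1 and HAT2 were identical at 56.4% of the 250 bases after alignment and HAT3 and HB4 at 52.0%, below the identity of their coding sequences. Windows of unrelated genes were not aligned, so these values do not show that upstream sequence is retained. The longest upstream run that HAT1 and HAT2 share is 8 bases.

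Most HD-ZIP II message came from 4 genes. HAT1, HAT2, HAT22 and HAT4 together made up 82.9% to 89.0% of the summed FPKM of the 9 genes in a library, and HB4 at most 0.889%. In Col-0 on MS, the order from high to low was HAT1, HAT2, HAT22, HAT4, HB17, HAT9, HAT14, HAT3 and HB4. Neighbours in that order did not overlap between libraries, except HB17 with HAT9 and HAT3 with HB4. With IAA, HAT2 stood above HAT1 in both genotypes, again without overlap. Summed over the 9 genes, Col-0 held 128 ± 9.59 FPKM without and 165 ± 20.4 FPKM with IAA, and siz1-2 held 115 ± 3.78 and 154 ± 11.7 FPKM (SD, n = 3). In bulk RNA from whole roots, fewer cells with a message and less message per cell cannot be told apart.

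**Figure D2:**
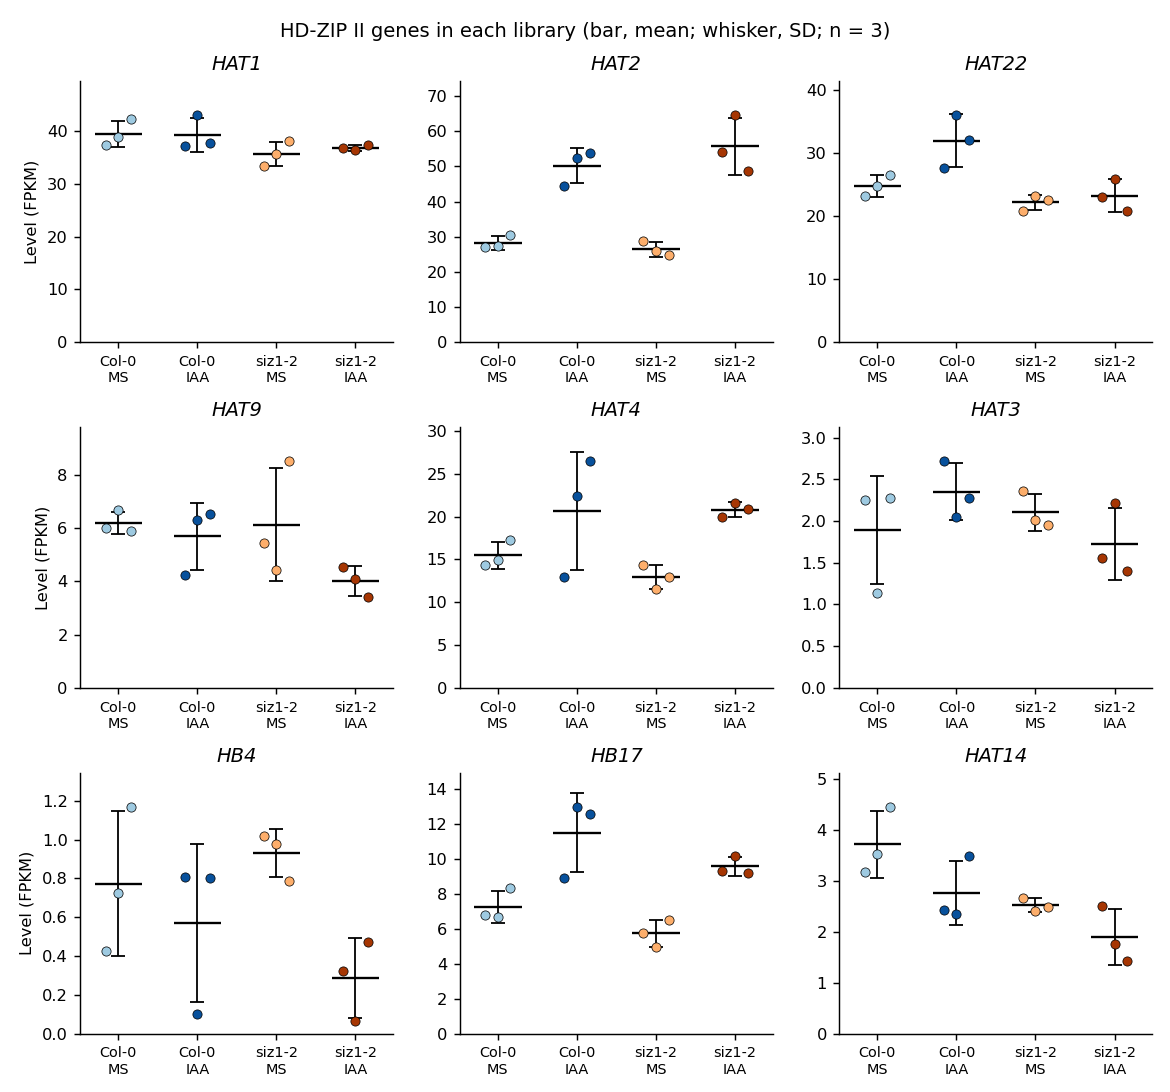
FPKM of the 9 HD-ZIP II genes in each of the 12 libraries, 1 panel per gene with its own linear axis from 0; points are libraries in replicate order, bars the mean and whiskers the SD (n = 3). HAT2 and HB17 lie higher with IAA than on MS in both genotypes, HAT1 stays between 33.4 and 43.0 FPKM in every group, and HB4 lies at or below 1.17 FPKM throughout.

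To ask which of these genes respond to auxin in wild-type roots, IAA was compared with MS in Col-0. HAT2 and HB17 rose, and no member fell. These are 2 of 8 tested genes, against 17.3% of all 18743 tested genes called in either direction and 9.09% called higher (limma on log2(FPKM + 0.5), adjusted p under 0.05). The median log2 fold change of the 8 was 0.32, against -0.02 over all tested genes.

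HAT2 measured 27.0, 27.3 and 30.6 FPKM in the 3 Col-0 libraries on MS and 44.5, 52.3 and 53.7 FPKM with IAA. The lowest IAA library was above the highest MS library. The log2 fold change was 0.81 (SE 0.13, limma adjusted p = 0.00055), and it lay between 0.76 and 0.90 when each library was left out in turn. HAT2 was called under every alternative that was run.

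HB17, which is linked to abscisic acid and stress responses, measured 6.82, 6.66 and 8.33 FPKM in Col-0 on MS and 8.91, 13.0 and 12.6 FPKM with IAA. The groups did not overlap, but IAA replicate 1, the library high in green tissue markers, lay nearest to the MS libraries. The log2 fold change was 0.61 (SE 0.17, limma adjusted p = 0.022). The call was lost (adjusted p from 0.053 to 0.091) without MS replicate 1, MS replicate 2, IAA replicate 2 or IAA replicate 3, and also when only the compared groups were fitted (adjusted p = 0.10).

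HAT4 and HAT22 were higher on average with IAA in Col-0 but did not pass. HAT4 measured 14.3, 14.9 and 17.3 FPKM on MS and 13.0, 22.4 and 26.5 FPKM with IAA (log2 fold change 0.35, SE 0.20, limma adjusted p = 0.27). Its groups overlapped through IAA replicate 1 alone, which was below every MS library. Without that library its log2 fold change was 0.64 (limma adjusted p = 0.0032), and 0.64 (adjusted p = 0.0055) without both libraries high in green tissue markers. HAT22, known as ABIG1 for its part in growth inhibition under abscisic acid and drought, measured 23.1, 24.7 and 26.5 FPKM on MS and 27.6, 36.0 and 32.1 FPKM with IAA. The groups did not overlap, yet the log2 fold change of 0.35 (SE 0.13) did not pass (limma adjusted p = 0.072). It passed without IAA replicate 1 (0.45, adjusted p = 0.017), as under median centring of the libraries (0.38, adjusted p = 0.048). Leaving that library out thus raised the number of members called from 2 to 4. The share of all tested genes called in that fit was not computed, so the rise is not shown to be particular to the members. How far the green tissue RNA bears on HAT4 and HAT22 was not tested beyond these values.

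The other 4 tested genes gave no call in Col-0, and their intervals show what the data allow. For HAT1 the log2 fold change was -0.01 with a 95% interval from -0.23 to 0.21, the narrowest of the class. The intervals were -0.21 to 0.78 for HAT3, -0.61 to 0.35 for HAT9 and -0.83 to 0.07 for HAT14, so changes of that size remain possible. HB4 was below 1 FPKM in 10 of 12 libraries, with 2 to 33 fragments in a library, and was not tested.

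In siz1-2, HAT2, HB17 and HAT4 rose with IAA and no member fell, which is 3 of 8 against 17.9% of all tested genes called in either direction and 9.81% called higher. The median log2 fold change of the 8 was 0.06, against 0.10 over all tested genes. HAT2 measured 28.8, 25.8 and 24.7 FPKM on MS and 54.1, 64.6 and 48.6 FPKM with IAA. Every IAA library was far above the MS libraries, and the log2 fold change of 1.06 (SE 0.13, limma adjusted p = 6.8e-05) made HAT2 the only tested member that both passed and reached a log2 fold change of 1, as 5.85% of all tested genes did.

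HB17 measured 5.74, 4.99 and 6.50 FPKM in siz1-2 on MS and 9.33, 10.2 and 9.21 FPKM with IAA. The groups did not overlap and the IAA libraries lay close together (log2 fold change 0.69, SE 0.17, limma adjusted p = 0.011). Without MS replicate 2 it missed the threshold (0.61, adjusted p = 0.056).

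HAT4 measured 14.4, 11.6 and 12.9 FPKM in siz1-2 on MS and 19.9, 21.6 and 20.9 FPKM with IAA. All IAA libraries were above all MS libraries, including IAA replicate 2, which is high in green tissue markers. The log2 fold change was 0.67 (SE 0.20, limma adjusted p = 0.039) and ranged from 0.59 to 0.74 over the libraries left out. The call was close to the threshold. It was lost (adjusted p from 0.056 to 0.14) without Col-0 MS replicate 2 or without any 1 of the 6 siz1-2 libraries, and also with no filter on low genes (adjusted p = 0.057) or without the mean-variance trend (adjusted p = 0.050).

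Among the remaining members in siz1-2, HAT9 came closest to a call in the opposite direction. It measured 5.45, 4.44 and 8.53 FPKM on MS and 4.53, 4.1 and 3.42 FPKM with IAA (log2 fold change -0.52, SE 0.22, limma adjusted p = 0.13). The groups overlapped, and MS replicate 3 was well above the rest. HAT9 passed under median centring (-0.62, adjusted p = 0.042) and quantile normalization (-0.63, adjusted p = 0.034). Median centring moved the median of all genes in this comparison by -0.11 on the log2 scale. HAT22 was not called here, at 20.8, 23.1 and 22.6 FPKM on MS and 23.0, 25.9 and 20.8 FPKM with IAA (0.06, 95% interval -0.21 to 0.33, limma adjusted p = 0.76).

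HB4, too low to be tested, had 32, 30 and 23 fragments in the siz1-2 libraries on MS and 10, 2 and 14 with IAA. In Col-0 it had 13, 22 and 33 fragments on MS and 22, 3 and 25 with IAA. The groups did not overlap in siz1-2 and overlapped in Col-0. HAT3, its nearest relative and a gene of leaf polarity as well as shade avoidance, lay between 1.14 and 2.72 FPKM (36 to 77 fragments) in all 12 libraries.

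ATHB18, the class II gene outside the list of 9, measured 1.66, 1.59 and 1.95 FPKM in Col-0 on MS and 3.15, 4.89 and 5.34 FPKM with IAA. In siz1-2 it measured 1.31, 1.53 and 2.82 FPKM on MS and 4.25, 4.99 and 5.21 FPKM with IAA. The IAA libraries were above the MS libraries in both genotypes. It rose by 1.13 in Col-0 and by 1.2 in siz1-2 on the log2 scale (SE 0.24 for each, limma adjusted p = 0.0056 and 0.0037), so HB17 and ATHB18, which are nearest to each other in sequence from the side of either gene, rose in both genotypes.

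**Figure D3:**
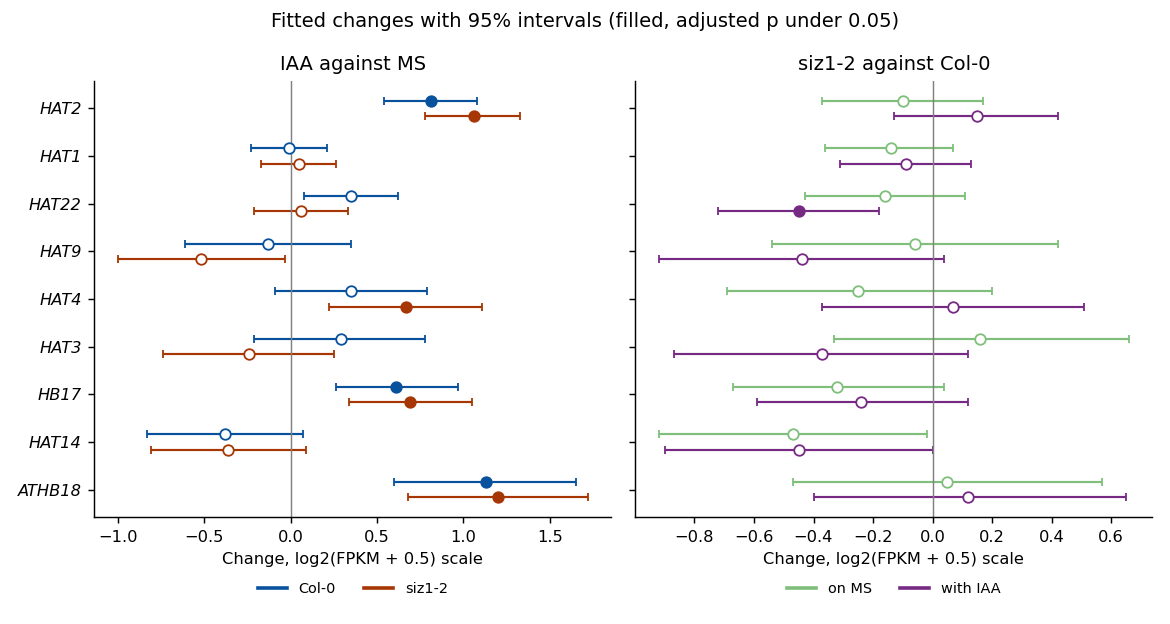
Fitted change of the 8 tested HD-ZIP II genes and ATHB18 on the log2(FPKM + 0.5) scale with 95% intervals, for IAA against MS (left) and siz1-2 against Col-0 (right); filled points passed an adjusted p of 0.05 in limma. With IAA, HAT2, HB17 and ATHB18 passed in both genotypes and HAT4 in siz1-2, whereas HAT22 with IAA is the filled point at -0.45 on the right.

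A test of the difference asks whether the IAA response of a gene depends on SIZ1. No member passed it (0 of 8, against 0.016% of all tested genes, limma), and none had an unadjusted p under 0.05, although 2124 of the 18743 genes did. For HAT2 the response in siz1-2 exceeded that in Col-0 by 0.24 on the log2 scale (95% interval -0.14 to 0.63). For HAT4 the difference was 0.32 (-0.31 to 0.94), so its call in siz1-2 and its missed call in Col-0 are not shown to differ. For HAT22 the difference was -0.29 (-0.67 to 0.09) and for HB17 0.08 (-0.43 to 0.59). The widest intervals belonged to the lower genes, HAT3 (-1.23 to 0.17) and HAT9 (-1.06 to 0.30).

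The genotypes were also compared at each condition. On MS no member was called (0 of 8, against 5.30% of all tested genes, limma), and 1 member had an unadjusted p under 0.05. That member was HAT14, at 3.18, 3.53 and 4.46 FPKM in Col-0 and 2.67, 2.41 and 2.49 FPKM in siz1-2. The groups did not overlap, but the log2 difference of -0.47 (SE 0.21) had a limma adjusted p of 0.24. HAT22 and HB17 also had non-overlapping groups on MS, with siz1-2 lower by less (-0.16 and -0.32, limma adjusted p = 0.53 and 0.34). The share of all tested genes whose groups did not overlap was not computed. The median log2 difference was -0.15 for the 8 members and -0.08 over all tested genes. Median centring moved the median of all genes in this comparison by 0.12.

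With IAA, HAT22 was lower in siz1-2 and no member was higher. This is 1 of 8, against 9.12% of all tested genes called in either direction and 5.21% called lower. The libraries with IAA measured 27.6, 36.0 and 32.1 FPKM in Col-0 and 23.0, 25.9 and 20.8 FPKM in siz1-2. Every siz1-2 library lay below every Col-0 library (log2 difference -0.45, SE 0.13, limma adjusted p = 0.042), and each genotype holds a library high in green tissue markers, at 27.6 and 25.9 FPKM. The call was lost (adjusted p from 0.052 to 0.18) without Col-0 MS replicate 2, Col-0 IAA replicate 2 or 3, any 1 of the 3 siz1-2 MS libraries or siz1-2 IAA replicate 1 or 3. It was also lost without the trend (adjusted p = 0.060) and when only the compared groups were fitted (adjusted p = 0.13). Without both libraries high in green tissue markers HAT22 was still called.

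Ratios between the members of a sequence pair within a library do not depend on how the libraries are scaled. HAT2 over HAT1 was 0.724, 0.701 and 0.726 in Col-0 on MS and 1.2, 1.22 and 1.42 with IAA. In siz1-2 it was 0.862, 0.723 and 0.651 on MS and 1.47, 1.78 and 1.3 with IAA. All 6 MS libraries were below 1 and all 6 IAA libraries above 1. The mean change was 0.93 on the log2 scale (0.83 in Col-0 and 1.02 in siz1-2). An exact two-sided permutation test of the treatment labels within each genotype gave p = 0.005, the smallest that its 400 arrangements allow, and p = 0.015 after Benjamini-Hochberg adjustment over the 3 pairs.

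HAT22 over HAT9 was 3.69 to 4.49 in Col-0 on MS and 4.91 to 6.50 with IAA, and 2.65 to 5.20 and 5.08 to 6.32 in siz1-2. The groups were apart in Col-0 and overlapped in siz1-2. The ratio changed by 0.57 on the log2 scale (exact permutation p = 0.010, adjusted p = 0.015), by 0.50 in Col-0 and 0.63 in siz1-2. In Col-0 HAT22 was the gene with the larger change on the log2 scale, and in siz1-2 it was HAT9, though neither was called in either genotype. HAT3 over HB4 changed by 1.49 (exact permutation p = 0.050, adjusted p = 0.050), and this rests on the few fragments of HB4, with ratios of 20.6 and 33.7 in the libraries where HB4 had 3 and 2 fragments. The pairs were chosen by sequence with the values of the genes known.

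**Figure D4:**
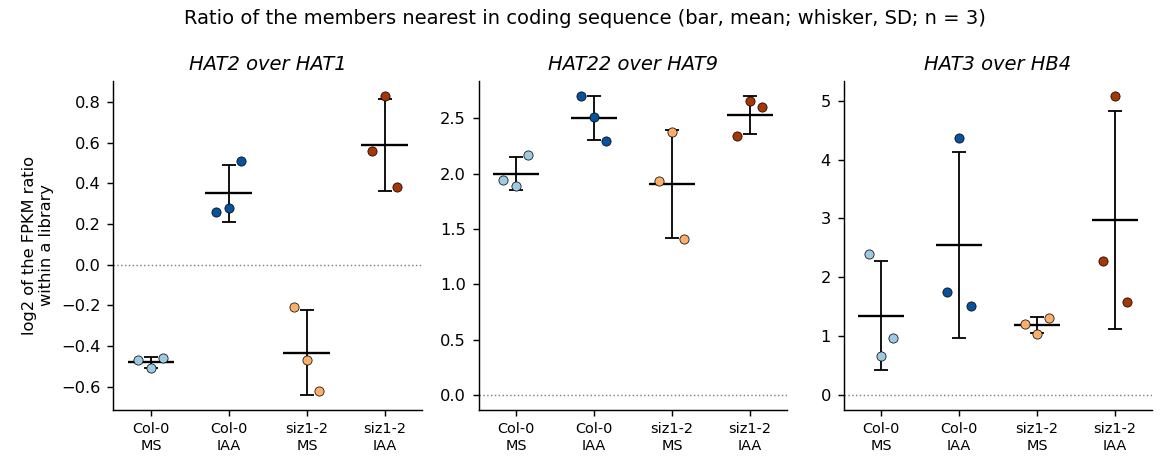
log2 of the FPKM ratio within each library for the 3 pairs nearest in coding sequence; points are libraries in replicate order, bars the mean, whiskers the SD (n = 3) and the dotted line a ratio of 1. HAT2 over HAT1 lies below the line in all 6 MS libraries and above it in all 6 IAA libraries.

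The genes whose profile over the 12 libraries was most like that of a called member were found by the root mean square difference of log2(FPKM + 0.5), each gene centred on its own mean, among 18742 other tested genes. For HAT2 they were AT1G30680 (0.144) and AT2G28660 (0.151), for HB17 MGT7 (0.107) and RHB1A (0.123), for HAT4 SUVR4 and GP ALPHA 1 (0.099 each) and for HAT22 AT5G14680 (0.082) and MEMB11 (0.095). No other HD-ZIP II gene was among them.

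Genes that act with the class, or are related to it, were taken as lists. Of the 12 shade avoidance genes, 8 were tested; in Col-0 4 fell and none rose with IAA, against 8.21% of all tested genes called lower. In siz1-2 3 fell and none rose, against 8.06%, and the list medians were -0.36 and -0.15. PAR1, PAR2 and HFR1, which restrain shade avoidance growth and are induced by shade as HAT4 is, fell in both genotypes. PAR1 fell from 4.54 ± 0.556 to 1.51 ± 0.359 FPKM in Col-0 (SD, n = 3) and from 3.56 ± 0.200 to 1.77 ± 0.268 FPKM in siz1-2 (log2 fold changes -1.34 and -0.84). HFR1 changed by -1.12 and -1.37 and PAR2 by -1.40 and -1.72 on the same scale. HY5, a light-signalling factor, fell in Col-0 (-0.46), but not without IAA replicate 1 (-0.38, limma adjusted p = 0.082). PIF3, a phytochrome-interacting factor, exceeded its Col-0 level in the mutant with IAA (0.75, limma adjusted p = 0.021), but missed the threshold without both libraries high in green tissue markers (0.64, adjusted p = 0.097). PIF3 was the only 1 of the 8 called in that comparison, against 9.12% of all tested genes. The direction of PAR1, PAR2 and HFR1 was thus opposite to that of HAT2 and HB17.

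Of the 5 TOPLESS co-repressor genes none was called in Col-0, where the list median was -0.21. In siz1-2 the median was 0.38 and TPR3 rose (log2 fold change 0.51, limma adjusted p = 0.042), from 10.4, 10.4 and 9.27 FPKM on MS to 16.2, 13.4 and 14.2 FPKM with IAA. TPR3 had a log2 fold change of 0.26 in Col-0 (adjusted p = 0.29), and the difference of its responses was not called (0.25, adjusted p = 0.61). Without Col-0 IAA replicate 1, 3 of the 5 rose in siz1-2, but the share of all tested genes in that fit was not computed. In the main fit 9.81% of all tested genes were called higher in siz1-2. The median log2 fold change over all tested genes was 0.10 there. Among the 3 brassinosteroid partners of HAT1, BES1 (0.51) and BZR1 (0.54) rose with IAA in siz1-2. In Col-0 they had log2 fold changes of 0.33 and 0.35 (limma adjusted p = 0.075 for each), and their responses were not shown to differ (0.18 and 0.19, adjusted p = 0.63 and 0.62). The list median was 0.33 in Col-0 and 0.51 in siz1-2. HAT1 itself stayed within 33.4 to 43.0 FPKM in all libraries.

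The sister classes served as a comparison. Of 17 class I genes 13 were tested, and with IAA in Col-0 1 rose (ATHB52, log2 fold change 0.51) and 3 fell (ATHB12 by 1.47, ATHB3 by 1.04 and ATHB23 by 0.96), which is 4 of 13 against 17.3% of all tested genes. Without IAA replicate 1 the log2 fold change of ATHB23 was -0.48 (limma adjusted p = 0.042, against 0.046 with it). In siz1-2 ATHB16 rose (0.74) and ATHB3 fell (by 1.1), 2 of 13 against 17.9%. ATHB3 measured 23.6, 19.4 and 19.3 FPKM on MS and 7.23, 12.5 and 10.4 FPKM with IAA in Col-0, with no overlap. Between the genotypes on MS, ATHB16 was lower (-0.58, limma adjusted p = 0.037) and ATHB40 higher (0.87, adjusted p = 0.047) in siz1-2. These were the only calls among the 13, against 5.30% of all tested genes. With IAA only ATHB53 was called, as higher in siz1-2 (1.31, limma adjusted p = 0.013), against 9.12% of all tested genes. Its level was low, at 2.42 ± 1.04 FPKM in siz1-2 and 0.634 ± 0.182 FPKM in Col-0 (SD, n = 3). Of the 5 class III genes, which pattern vascular tissue and organ polarity, only PHB was called, with a rise of 0.45 in siz1-2 with IAA. This is 1 of 5, against 9.81% of all tested genes called higher there. Without Col-0 IAA replicate 1, 2 genes of the class rose in siz1-2, and the share of all tested genes in that fit was not computed. No gene of these classes or of the lists above was called for the difference of the responses. The check gene GH3.3 was called (-3.06), with a higher level in siz1-2 on MS and no called difference between genotypes with IAA.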

How the data were processed

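RNA was isolated from roots and sequenced and processed on the platform of a service company (Oebiotech). For the aligner, the counter and the gene annotation, the sources used here give no name. The authors deposited a table of FPKM values for 23853 genes in 12 libraries, made from fragment totals and gene lengths, with no replicate pooled. Low FPKM values of a gene were whole multiples of 1 fragment, and the size of that step matched the exonic length in RefSeq's annotation of TAIR10.1 for 99.6% of the 22966 genes with a step. TAIR10.1 coordinates and sequences were therefore used. Recovered fragment numbers were within 0.03 of a whole number for 100.0% of the values of at most 1000 fragments.

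The 18743 genes that reached 1 FPKM in 3 or more libraries were tested with limma 3.58.1 in R 4.3.3, with the mean-variance trend, on log2(FPKM + 0.5). The 4 group means were fitted to all 12 libraries, 5 contrasts were taken, and p-values were adjusted by the Benjamini-Hochberg method over all tested genes of a contrast. Fold changes on this scale understate changes of low genes. Since the table holds FPKM and not counts, no count model was the main test. The permutation test of the pair ratios was exact and two-sided.

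All 9 members are named. From each other list, up to 4 called genes with the largest moderated statistic were named for IAA in Col-0 and up to 2 for each other contrast; SIZ1, GH3.3, IAA19 and LBD29 served as checks, and the 2 most alike genes were named for called members. The members, lists and pairs were chosen with earlier results of these data known. Alternatives were other pseudocounts, filters, scalings and limma settings, fits to the compared groups alone, a replicate block and each library left out. Same-numbered libraries on MS had deviations of r = 0.12, 0.20 and 0.34 between genotypes. Col-0 replicate 1 and siz1-2 replicate 2 on MS reached r = 0.15, so these values do not settle whether the numbers pair the libraries. In the other group pairs, same-numbered libraries had r from -0.28 to 0.28. Pairing was not tested. ATHB18 was added beside the 9 genes as the remaining gene of the class. Sequences were aligned with Biopython 1.88. The upstream sequence of HAT9 is not reported here.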

Additional observations from a re-analysis of the deposited data

How the results depend on the processing

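The number of members called with IAA in Col-0 was 2, became 1 with the compared groups alone and 4 without both libraries high in green tissue markers, and ranged from 1 to 4 over the libraries left out (4 without Col-0 IAA replicate 1), with 3 under median centring. In siz1-2 it was 3, became 4 under median centring and quantile normalization and 2 with no filter and without the trend, and was 1 to 3 over the libraries left out (1 without siz1-2 MS replicate 2). Between genotypes with IAA it was 1, became 0 without the trend and with the compared groups alone, and was 0 to 1 over the libraries left out. It was 0 on MS and for the difference of the responses under every alternative run. The replicate block left these counts at 2, 3 and 1 and changed no other call. Leaving out both green-rich libraries and limma-voom on recovered fragments were chosen after seeing the data. The cause of these changes was not tested, and an exclusion leaves fewer libraries. Shares of all tested genes were computed for the main fit only, so these counts have no such share beside them.

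No called change reversed. Values that changed sign were small and not called. Under median centring they were 0.02 (HAT1, Col-0), -0.06 and -0.04 (HAT1 and HAT22, siz1-2), -0.08, -0.11, -0.05 and -0.05 (difference for HAT1, HAT14, HB17 and ATHB18), and 0.03 and 0.06 (HAT2 and HAT9, genotypes on MS). Under quantile normalization they were -0.02 (HAT22, siz1-2), -0.18, -0.06 and -0.05 (difference for HAT14, HB17 and ATHB18) and 0.07 (HAT9 on MS), and limma-voom gave -0.01 for the HAT14 difference. Without both green-rich libraries they were 0.03 and 0.05 (HAT1 and HAT9, Col-0), -0.02 (HAT22, siz1-2), -0.01, -0.02, -0.13 and -0.16 (difference for HAT4, HAT14, HB17 and ATHB18), and -0.05, -0.25 and -0.11 (HAT2, HAT4 and ATHB18, genotypes with IAA).

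Over the libraries left out, the values that crossed 0 ranged from -0.07 to 0.04 (HAT1) and -0.24 to 0.05 (HAT9) in Col-0, from 0.0 to 0.09 (HAT1) and -0.02 to 0.14 (HAT22) in siz1-2, and from -0.15 to 0.18 (HAT14), -0.09 to 0.18 (HB17) and -0.13 to 0.34 (ATHB18) for the difference. Between genotypes they ranged from -0.09 to 0.29 (HAT3), -0.30 to 0.13 (HAT9) and -0.22 to 0.22 (ATHB18) on MS, and from -0.22 to 0.28 (HAT4) and -0.08 to 0.26 (ATHB18) with IAA. Depth limits HB4, with 2 to 33 fragments in a library, and with no filter on low genes it entered the fit and was not called.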
